A study of Mus musculus with 4 samples.

Results

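The MHC class I presentation genes described here are H2-K1, H2-D1, H2-T23, H2-Q10, B2m, Tap1, Tap2, Tapbp, Psmb8 and Psmb9. They were chosen by name as 10 of the 16308 genes in the deposited single-cell count tables, and each was found in every library. The cells were CD45+ leukocytes sorted from the muscularis externa, the muscle coat, of the small intestine of 12-week-old mice after intestinal manipulation (IM), a surgical handling of the gut that causes muscularis inflammation. One group was WT C57BL/6J, and the other CCR2 KO, which lacks the chemokine receptor that monocytes use to leave the bone marrow (Ccr2-/-, strain B6.129S4-Ccr2tm1Ifc/J). Each genotype was taken 24 h and 72 h post-injury. There was 1 library for each genotype and time, made from pooled mice, so all 4 groups had undergone IM, no difference between libraries has a replicate, and no p-value is given. Genotype and time cannot be told apart from the library itself.

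MHC class I molecules display peptides from inside the cell to CD8 T cells, and their loss is sensed by NK cells. The proteasome cuts proteins to peptides, the TAP transporter carries them into the endoplasmic reticulum, and tapasin holds an empty class I molecule beside TAP until a peptide binds. A heavy chain then reaches the cell surface together with the light chain β2-microglobulin. Interferons raise the transcription of most of these genes, and the transactivator NLRC5 and NF-κB act on their promoters.

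The libraries held 1674 and 1771 cells at 24 h (WT and CCR2 KO) and 1315 and 1042 cells at 72 h after 9 cells with non-immune transcripts were removed, with 9620609 to 21206308 unique molecular identifiers (UMIs, 1 per captured transcript) each. Median UMIs per cell were lower in CCR2 KO (3282 and 5016) than in WT (12859 and 12427). Over all cells Ccr2 stood at 720 and 923 CPM (UMIs per 1000000) in WT and at 47.4 and 54.4 CPM in CCR2 KO, in the direction of the labels. At most 1 cell barcode was shared by any pair of libraries. Clusters were named by their markers as monocyte/Mφ-like (2519 cells), neutrophil-like (2325), dendritic cell (DC)-like (393), T cell-like (168), NK cell-like (85), B cell-like (74) and innate lymphoid cell (ILC)-like (48), and 190 cells in 3 clusters stayed unnamed. The members were left out of the genes used for clustering. UMIs were pooled over the cells of a class in each library, and 95% intervals cover counting error only. A member was called when its pooled CPM differed at least 1.5-fold and the interval of the log2 ratio left out 0.

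All members but B2m lie in the MHC on chromosome 17 (GRCm38). H2-K1 spans chr17:33996017-34000347, Tapbp chr17:33915899-33929292, H2-D1 chr17:35262730-35267499, H2-Q10 chr17:35470089-35474563 and H2-T23 chr17:36029773-36032855. Psmb9 (chr17:34181987-34187764), Tap1 (chr17:34187553-34197225), Psmb8 (chr17:34197721-34201454) and Tap2 (chr17:34203527-34216321) stand next to one another. Tap1 and Psmb9 are transcribed in opposite directions, and these GENCODE spans overlap at their starts, whereas the starts of their RefSeq promoters are 225 bases apart and do not overlap. B2m lies at chr2:122147686-122153083. Of the start positions of 90-base windows at the transcripts' 3′ ends, 13.4% were shared with another gene for H2-T23, 0.2% for H2-K1 and 0 for the other members, so a part of the reads of H2-T23 may have been set aside or split.

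Promoter stretches of 30 bases are shown for the heavy chains and for the light chain, which differ in the interferon and NF-κB motifs marked below. They come from RefSeq promoters on GRCm38.p6 and read 5′ to 3′ in the direction of the gene. H2-K1 is chr17:34000429-34000458 on the minus strand, H2-D1 chr17:35262923-35262952 on the plus strand, H2-Q10 chr17:35469913-35469942 on the plus strand, B2m chr2:122147538-122147567 on the plus strand and H2-T23 chr17:36032805-36032834 on the minus strand. The stretches end 81, 141, 146, 119 and 103 bases before the start that RefSeq gives. The GENCODE spans of H2-D1 and H2-T23 above start further upstream, so that their stretches lie inside those spans. Capitals mark the κB motif GGGATTCCC, the core of the interferon-stimulated response element TTTCACTTC, or the interferon regulatory factor element GAAANNGAA, all searched on both strands and not overlapping here.
H2-K1: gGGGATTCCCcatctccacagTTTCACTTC
H2-D1: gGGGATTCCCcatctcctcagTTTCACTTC
H2-Q10: gaggactccccatctccccagTTTCACTTC
B2m: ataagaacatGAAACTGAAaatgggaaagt
H2-T23: tcctactgctTTCTCTTTCataaagacaca

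Counted from 1 at the 5′ end of the H2-K1 stretch, H2-D1 differed by A18T, and H2-Q10 by G2A, T6C and A18C. The κB motif is thus in H2-K1 and H2-D1 and not in these letters in H2-Q10, which has the response element only. Of 32851 RefSeq promoters of 300 bases, 0.353% held the κB motif, 0.505% the response element TTTCACTTC and 8.56% GAAANNGAA, and 7 of the 9 members with a promoter in the table held CCAAT, found in 37.4%. Tap1, Tapbp, Psmb8 and Psmb9 held none of the motifs marked above. A match describes the letters only, and its part in the levels was not tested.

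The classical heavy chains H2-K1 and H2-D1 and the light chain B2m were the most abundant members in every class, libraries pooled, and in each library but CCR2 KO 72 h in DC-like cells, where Psmb8 (1058 CPM) stood above B2m (988 CPM). Levels between genes are compared here as 3′ CPM of UMIs, which do not grow with transcript length. Summed over the 10 members and the 4 libraries, NK cell-like cells held 12276 CPM, T cell-like cells 11901, ILC-like cells 11390, neutrophil-like cells 7665, monocyte/Mφ-like cells 7091, DC-like cells 6470 and B cell-like cells 5930. T and NK cell-like cells stood above the other classes in each of their libraries of at least 20 cells (11668 to 12466 CPM), ILC-like cells having no such library. B cell-like cells were lowest only in the pooled sum, as they held 5121 CPM in CCR2 KO 24 h (36 cells) but 7148 CPM in WT 72 h (20 cells), above every DC-like library.

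**Figure D1:**
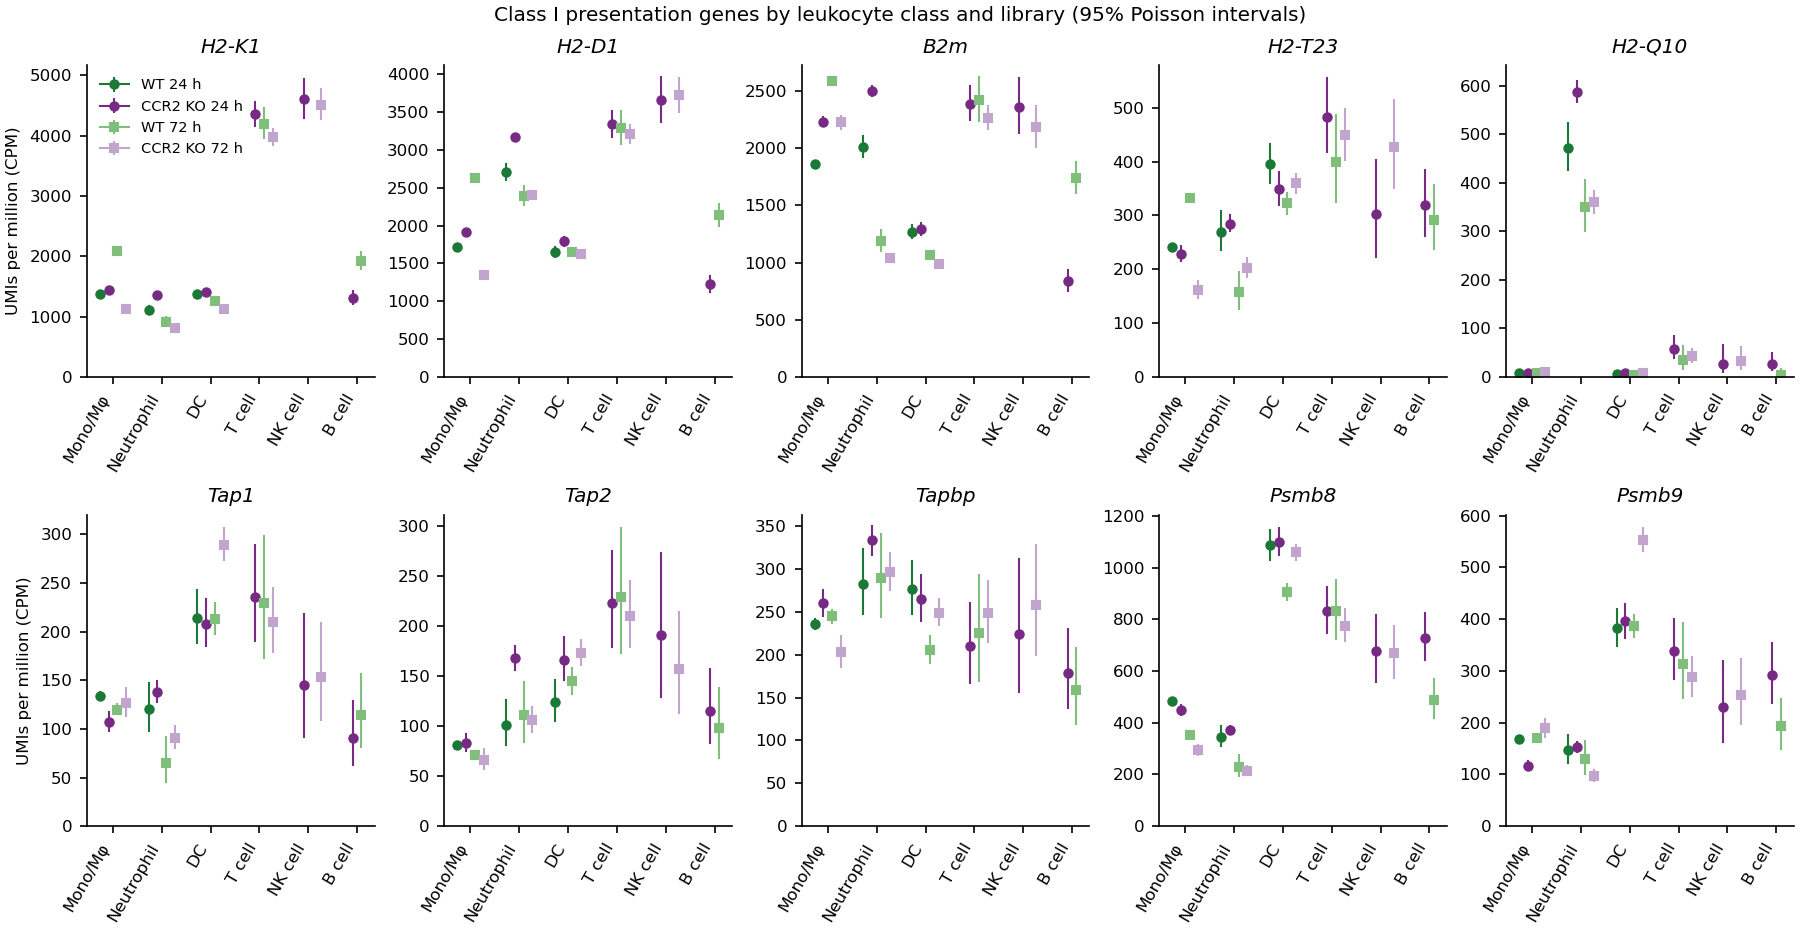
Level of each member (CPM, linear axis) in each class and library of at least 20 cells; circles are 24 h, squares 72 h, green WT and purple CCR2 KO. H2-K1 is highest in T cell-like and NK cell-like cells (3975 to 4602 CPM), H2-Q10 is high in neutrophil-like cells alone among these classes, and Psmb8 and Psmb9 are highest in DC-like cells.

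H2-K1 was the member that most separated T and NK cells from the other classes. It stood at 4602 and 4513 CPM in NK cell-like cells (CCR2 KO 24 h and 72 h) and at 4355, 4197 and 3975 CPM in T cell-like cells (CCR2 KO 24 h, then WT and CCR2 KO at 72 h). ILC-like cells, with under 20 cells in every library, held 3545 CPM pooled. B cell-like cells held 1308 CPM at CCR2 KO 24 h and 1926 CPM at WT 72 h. The T cell-like libraries lay below both NK libraries and above both B cell libraries, whereas B cell-like, monocyte/Mφ-like, DC-like and neutrophil-like cells overlapped.

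H2-D1 had another order. NK cell-like cells held 3660 and 3724 CPM and T cell-like cells 3344, 3289 and 3206 CPM. Neutrophil-like cells came next, at 2708, 3174, 2396 and 2404 CPM in WT and CCR2 KO at 24 h and then in WT and CCR2 KO at 72 h, which is the order of libraries in all lists of 4 values below. Each of these 3 classes lay wholly below the one before it, and monocyte/Mφ-like cells overlapped with neutrophil-like cells. The UMI ratio of H2-K1 to H2-D1 was 1.23 in NK cell-like and 1.26 in T cell-like cells, 0.797 in monocyte/Mφ-like, 0.746 in DC-like and 0.400 in neutrophil-like cells. Neutrophil-like cells thus held the fewest H2-K1 transcripts per H2-D1 transcript of these 5 classes, with 0.410, 0.427, 0.383 and 0.337 in the 4 libraries.

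B2m, the shared light chain, varied less between classes than H2-K1. Pooled levels were 2662 CPM in ILC-like, 2309 in T cell-like, 2168 in NK cell-like, 2159 in monocyte/Mφ-like, 1925 in neutrophil-like, 1190 in B cell-like and 1092 in DC-like cells. Neighbours in this order overlapped between libraries wherever both had libraries of 20 cells. H2-T23, a nonclassical heavy chain that presents leader peptides of other class I chains to NKG2 receptors, was lower than H2-K1 and H2-D1 throughout, from 250 CPM in neutrophil-like to 443 CPM in T cell-like cells pooled. The 9 cells of an unnamed cluster led by Siglech, a gene of plasmacytoid DCs, held H2-T23 at 1135 CPM.

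The inducible proteasome subunits were most abundant in DC-like cells. Psmb8, the subunit that replaces Psmb5 in the immunoproteasome, stood at 1087, 1099, 906 and 1058 CPM there, above 831, 832 and 776 CPM in T cell-like and 678 and 668 CPM in NK cell-like cells, with no overlap between these 3 classes. Monocyte/Mφ-like cells held 484, 449, 353 and 294 CPM and neutrophil-like cells 346, 373, 231 and 215 CPM. Psmb9, which replaces Psmb6, followed the same classes, at 382, 396, 386 and 553 CPM in DC-like, 338, 314 and 288 CPM in T cell-like and 230 and 254 CPM in NK cell-like cells.

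Tap1 and Tap2 encode the subunits of the peptide transporter, and Tapbp encodes tapasin. Tap1 stood at 214, 208, 213 and 289 CPM in DC-like and at 236, 229 and 210 CPM in T cell-like cells, which overlapped, and monocyte/Mφ-like cells (134, 107, 120 and 127 CPM) lay below both. Tap2 was highest in T cell-like cells (223, 229 and 210 CPM) and lowest in monocyte/Mφ-like cells (80.8, 83.1, 71.6 and 66.6 CPM). Tapbp, like H2-Q10 below, had its highest pooled level in neutrophil-like cells, 314 CPM, and every neutrophil library (283, 333, 289 and 297 CPM) lay above every DC library (277, 265, 206 and 249 CPM).

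H2-Q10 encodes a class I heavy chain that is secreted and is best known from the liver, and here it was found in neutrophil-like cells. It stood at 472 (95% interval 424 to 525), 587 (564 to 612), 350 (299 to 407) and 361 (336 to 386) CPM in the 4 neutrophil libraries. The next classes were T cell-like cells with 43.8 CPM pooled (62 UMIs), ILC-like cells with 38.4 (13 UMIs), NK cell-like cells with 29.4 (16 UMIs) and B cell-like cells with 15.2 (13 UMIs). Monocyte/Mφ-like and DC-like cells held 8.07 and 7.14 CPM. Every neutrophil library lay above every library of the other classes.

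The share of cells with an H2-Q10 UMI was compared at equal depth. After each cell was thinned to 1000 UMIs and shallower cells were left out, H2-Q10 was found in 34.1% of neutrophil-like cells (767 of the 2249 that were deep enough among 2325, Clopper-Pearson 95% interval 32.1 to 36.1), against 4.76% of T cell-like cells (8 of 168), 1.21% of monocyte/Mφ-like cells (30 of 2476) and 0.510% of DC-like cells (2 of 392). Without thinning the shares were 56.3%, 26.8%, 8.65% and 12.5%, at median depths of 2880, 7211, 14408 and 19910 UMIs per cell. The share in monocyte/Mφ-like and DC-like cells is the background in cells that held the gene least, and the share in neutrophil-like cells was over it although they were the shallowest.

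Transcripts of neutrophil markers were also found in the other classes, so H2-Q10 was set against them. Per 100 UMIs of the 7 neutrophil markers there were 0.584 H2-Q10 UMIs in neutrophil-like, 1.49 in monocyte/Mφ-like, 3.23 in DC-like, 9.30 in NK cell-like, 15.3 in T cell-like and 48.1 in ILC-like cells. The ratio also differed among neutrophil clusters, from 0.179 in cluster 6 to 1.48 in cluster 5, and so was not the same in all cells with these transcripts. The part of free RNA in the low H2-Q10 levels outside neutrophil-like cells was not tested. Over all cells, H2-Q10 stood at 23.8 and 18.4 CPM in WT and at 234 and 95.3 CPM in CCR2 KO, where neutrophil-like cells made up more of the library (1249 of 1771 and 580 of 1042 cells, against 305 of 1674 and 191 of 1315). In such sums over all cells, fewer cells of a type and less RNA per cell cannot be told apart.

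Among neutrophil-like cells, H2-Q10 was highest in cluster 0, led by Cxcr2, the receptor that draws neutrophils into tissue. It stood there at 780, 809, 551 and 521 CPM, was second among the genes leading that cluster, and was therefore a description of it and not a test. Cluster 2, led by Il1f9, held 512, 444, 553 and 190 CPM, and cluster 6, led by Retnlg and with Ly6g among its leading genes, 259, 534, 551 and 334 CPM. Cluster 5, led by Siglecf, held 581 CPM in CCR2 KO 24 h and 128 and 385 CPM in WT and CCR2 KO at 72 h, with 7 cells in WT 24 h. The unnamed cluster 13, with Gdf15 among its leading genes, held 145 CPM in CCR2 KO 24 h. Cluster 0 thus stood highest in WT 24 h, CCR2 KO 24 h and CCR2 KO 72 h, while clusters 0, 2 and 6 lay between 551 and 553 CPM in WT 72 h.

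**Figure D2:**
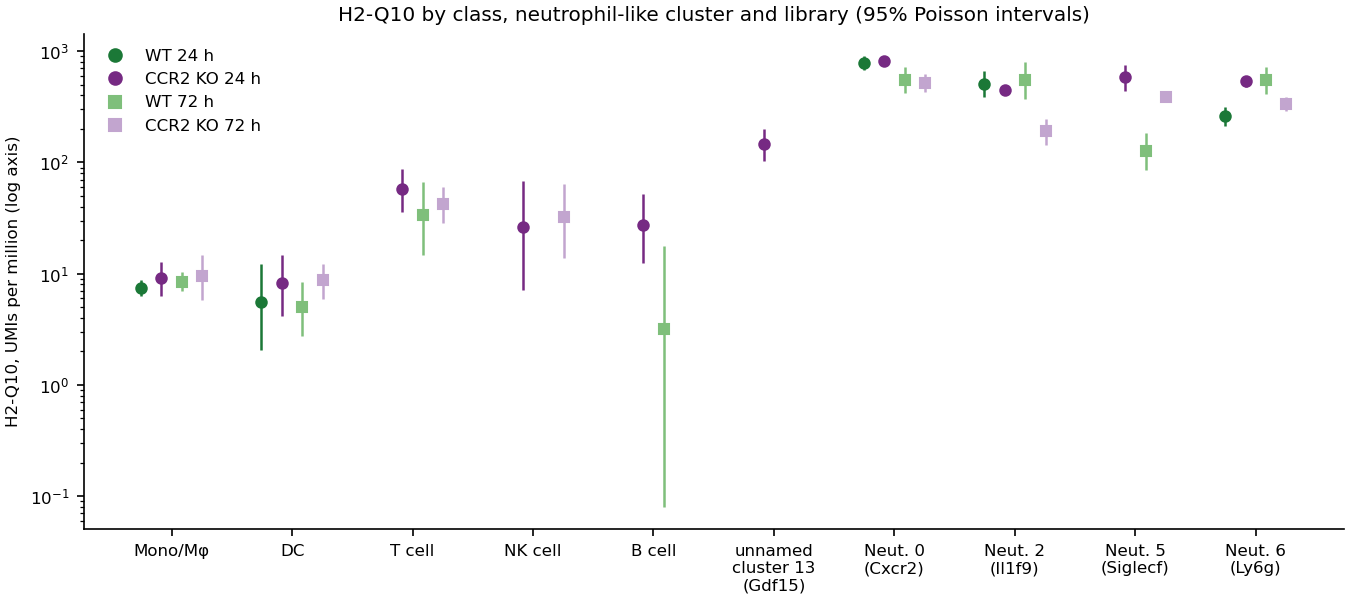
H2-Q10 level (CPM, log axis) in leukocyte classes and in neutrophil clusters; each point is 1 library with its exact Poisson 95% interval, circles 24 h, squares 72 h, green shades WT and purple shades CCR2 KO. Neutrophil clusters lie between 128 and 809 CPM, whereas monocyte/Mφ-like cells stay between 7.45 and 9.08 CPM at 24 h and at 8.49 and 9.51 CPM at 72 h.

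At 72 h post-injury, the heavy chains differed most between the genotypes in monocyte/Mφ-like cells. H2-K1 stood at 2084 CPM in WT (2059 to 2110, 876 cells) and at 1124 CPM in CCR2 KO (1079 to 1170, 148 cells), a log2 ratio of -0.89 (-0.95 to -0.83). H2-D1 was lower as well, at 2626 CPM (2598 to 2655) in WT and 1345 CPM (1296 to 1396) in CCR2 KO, a log2 ratio of -0.97 (-1.02 to -0.91). For H2-T23 the levels were 332 (322 to 342) and 161 CPM (144 to 179), a log2 ratio of -1.04 (-1.21 to -0.88). These were the 3 members called of the 9 with enough UMIs, while 25.4% of the 6412 genes tested were called, and 8.37% of the genes tested were called lower. All called members were heavy chains, and the fourth, H2-Q10, had 106 and 20 UMIs and was too low to compare.

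The partners of the heavy chains differed less at 72 h. B2m stood at 2586 CPM in WT and 2226 CPM in CCR2 KO (log2 ratio -0.22, -0.26 to -0.17), and Tap1 at 120 and 127, Tap2 at 71.6 and 66.6, Tapbp at 244 and 203, Psmb8 at 353 and 294 and Psmb9 at 171 and 189 CPM. The ratio of H2-K1 and H2-D1 UMIs to B2m UMIs was 1.66, 1.51 and 1.82 in the other 3 libraries and 1.11 in CCR2 KO 72 h. The median log2 ratio of the 9 members was -0.26, beside 0.13 over all genes tested.

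Different clusters held most of this class in the libraries, so the comparison was repeated within clusters. In WT 72 h most cells were in clusters 4 (529 cells) and 10 (161), and in CCR2 KO 72 h in clusters 8 (84) and 9 (34). Cluster 8 expressed Vcam1 and Cx3cr1 among its leading genes. In it H2-K1 stood at 2248 CPM in WT and 1132 CPM in CCR2 KO (-0.99, -1.09 to -0.89), H2-D1 at 2360 and 1193 CPM (-0.98, -1.08 to -0.89) and H2-T23 at 376 and 158 CPM (-1.25), with 63 WT and 84 CCR2 KO cells. Psmb8 was called there as well, at 451 and 278 CPM (-0.70, -0.90 to -0.49), and B2m was not (2640 and 2335 CPM, -0.18). Of all genes tested in cluster 8, 21.3% were called and 7.32% were lower. A separate sub-clustering of the class put 41 WT and 7 CCR2 KO cells of 72 h in its Cx3cr1 sub-cluster. Its dividing sub-cluster held 45 and 72. Cluster 8 may therefore hold different kinds of cell in these libraries, and its share of dividing cells was not counted.

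The other groups with at least 20 cells in both 72 h libraries also held less H2-D1 in CCR2 KO, but not all differed 1.5-fold in H2-K1. The dividing cells and the sub-cluster below come from the separate sub-clustering of the same class. They therefore share cells with the clusters and are not further independent groups. In cluster 9, led by Cxcl13 and Prg4, H2-K1 stood at 1756 CPM in WT (65 cells) and 1114 CPM in CCR2 KO (34 cells), and H2-D1 at 2947 and 900 CPM (-1.71, -2.01 to -1.43). H2-T23 and Psmb9 were called lower in it on 8 and 2 CCR2 KO UMIs, with 10.4% of all genes called lower. Its CCR2 KO cells were shallow, with a median of 1776.5 UMIs against 9374 in WT. Retnla and Cd5l were among the leading genes of cluster 9 and of the Timp2 sub-cluster, so cluster 9 may mix kinds of cell. In the dividing cells, which also held Igkc and Igha transcripts, H2-K1 stood at 2306 and 1092 CPM (-1.08) and H2-D1 at 2295 and 1136 CPM (-1.01), with 45 WT and 72 CCR2 KO cells. There H2-T23 (-1.51) and Psmb8 (-0.68) were called lower too, and 7.60% of all genes were. B2m was under 1.5-fold in clusters 8 and 9 and in the dividing cells. It was called lower in a sub-cluster also led by Cxcl13 and Prg4 (23 WT and 32 CCR2 KO cells), at 3511 and 2245 CPM (-0.65, -0.90 to -0.39). There H2-D1 was called lower too, at 1593 and 903 CPM (-0.82), on 176 and 76 UMIs, while H2-K1 stood at 1629 and 1295 CPM (-0.33, -0.69 to 0.02) and was not called, and 12.3% of all genes were called lower.

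**Figure D3:**
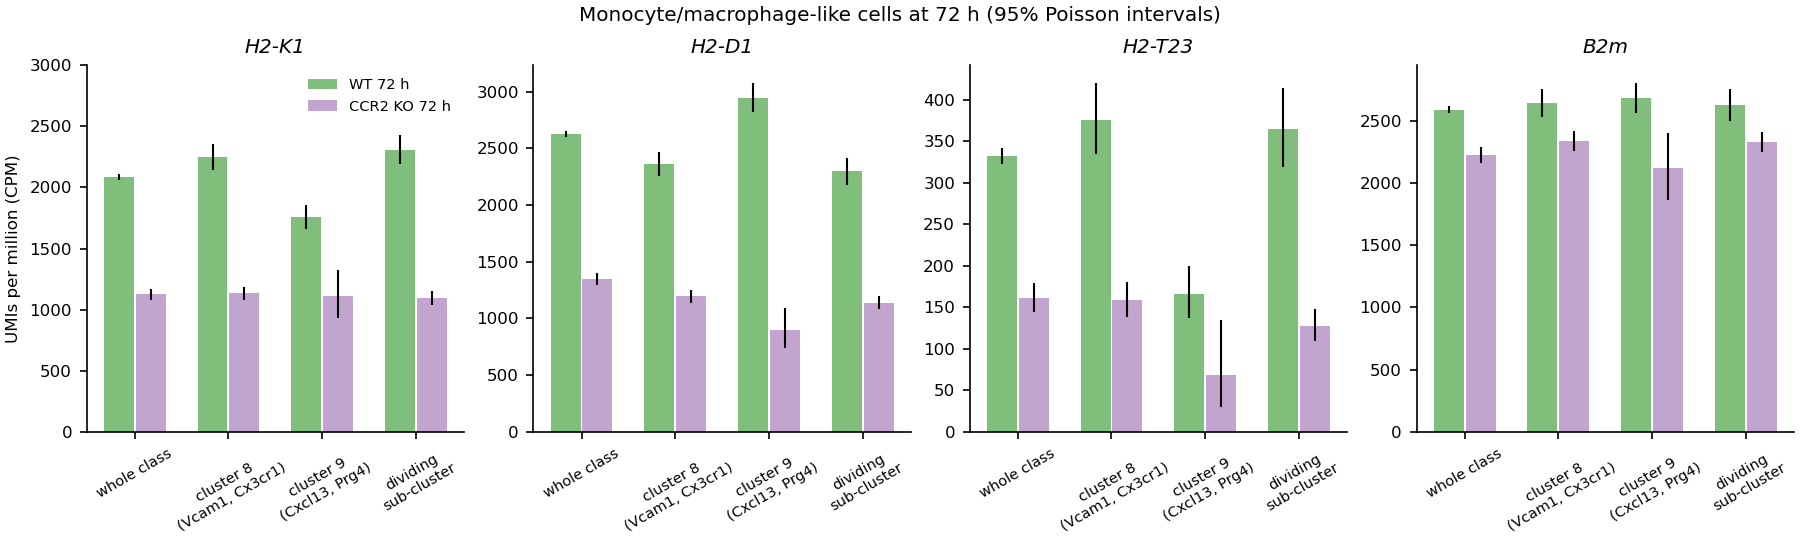
Levels (CPM, bars from 0, with exact Poisson 95% intervals) of H2-K1, H2-D1, H2-T23 and B2m at 72 h in WT (green) and CCR2 KO (purple), in the whole monocyte/Mφ-like class, in cluster 8 (Vcam1, Cx3cr1), in cluster 9 (Cxcl13, Prg4) and in the dividing sub-cluster of the whole class. The dividing cells come from a separate clustering of the same class, so the groups overlap. The 3 heavy chains are lower in CCR2 KO in all 4 groups of cells drawn, and B2m stands at 2117 to 2335 CPM in CCR2 KO against 2586 to 2680 CPM in WT.

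Other properties moved with this difference. Monocyte/Mφ-like cells of CCR2 KO 72 h had a median of 5.84% mitochondrial UMIs, against 3.98%, 3.54% and 4.31% in the other libraries, and with only cells of at most 5% (51 and 570 cells) H2-K1, H2-D1 and H2-T23 stood at -0.96, -0.89 and -1.14. All 14 monocyte/Mφ markers were found in each library, and their summed level was 18123 CPM in CCR2 KO 72 h against 34763 CPM in WT 72 h. Of other cell types, the 4 plasma cell markers summed to 546 CPM against 261 CPM (Mzb1 at 0 in WT), the 7 T cell markers to 33.8 against 16.97 CPM, the 7 NK cell markers to 19.5 against 1.04 CPM (Klra8 at 0 in CCR2 KO and Eomes in WT) and the 6 B cell markers to 34.7 against 34.2 CPM (Ms4a1 and Pax5 among those at 0 in CCR2 KO). The 7 neutrophil markers summed to 302 CPM in CCR2 KO 72 h against 268 CPM in WT 72 h. T and NK cell-like cells held more H2-K1 and H2-D1 than monocyte/Mφ-like cells. At 72 h in WT and CCR2 KO, H2-K1 stood at 918 and 810 CPM in neutrophil-like cells. In DC-like cells it stood at 1255 and 1130 CPM, and all 4 values lay below WT monocyte/Mφ-like cells. The part of the other markers in the result was not tested. The H2-D1 call was lost with finer clusters (-0.46, 28 and 428 cells), and that of H2-T23 when each cell was classed by its own markers (-0.51, 163 and 927 cells).

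At 24 h post-injury no member differed 1.5-fold between the genotypes in monocyte/Mφ-like cells. H2-K1 stood at 1381 CPM in WT (1275 cells) and 1446 CPM in CCR2 KO (220 cells), H2-D1 at 1713 and 1915 CPM, B2m at 1859 and 2231 CPM and H2-T23 at 241 and 229 CPM. The furthest was Psmb9, at 168 and 117 CPM, a log2 ratio of -0.53 (-0.67 to -0.38). Thus 0 of 9 members were called, beside 11.8% of all 5876 genes tested. Most cells were in clusters 1 (643) and 3 (516) in WT and in clusters 3 (96), 1 (58) and 8 (53) in CCR2 KO. Within clusters, Psmb9 was called lower in cluster 1 (-0.64) and cluster 3 (-0.73), and Tap1 in cluster 3 (-0.64), where 8.73% and 11.7% of all genes were called lower. In the sub-cluster led by interferon-response genes (309 WT and 41 CCR2 KO cells), H2-T23 was called lower in CCR2 KO, at 393 and 240 CPM (-0.71, -0.95 to -0.49), and Psmb9 at 250 and 127 CPM (-0.98, -1.30 to -0.67), with 10.7% of all genes called lower. H2-K1 stood there at 1890 and 1295 CPM (-0.55, -0.64 to -0.45), just under 1.5-fold. In cluster 8, with 23 WT and 53 CCR2 KO cells at 24 h, H2-K1 stood at 2103 CPM in WT and 2138 CPM in CCR2 KO, a log2 ratio of 0.02 (-0.12 to 0.16), and H2-D1 at 1898 and 2336 CPM, a log2 ratio of 0.30 (0.16 to 0.44), both under 1.5-fold.

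In WT monocyte/Mφ-like cells, H2-K1 rose from 1381 CPM at 24 h to 2084 CPM at 72 h, a log2 ratio of 0.59 (0.57 to 0.62), and H2-D1 from 1713 to 2626 CPM (0.62, 0.59 to 0.64). B2m (0.48) and H2-T23 (0.46) were just under 1.5-fold, and Psmb8 stood at 484 and 353 CPM (-0.46, -0.51 to -0.40). Thus 2 of 9 members were called, with 34.0% of all genes called and 16.1% higher. With TMM scaling, which sets the bulk of genes level between libraries, H2-K1 (0.50) and H2-D1 (0.53) were no longer called. Within cluster 8 H2-K1 was at 0.10 and H2-D1 at 0.31, and H2-T23 rose from 235 to 376 CPM (0.68, 0.28 to 1.10), with 10.7% of the genes tested in that cluster called higher.

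In CCR2 KO monocyte/Mφ-like cells, Psmb8 fell from 449 CPM at 24 h to 294 CPM at 72 h (-0.61, -0.74 to -0.47), and Psmb9 stood higher, at 117 and 189 CPM (0.70, 0.49 to 0.90). The heavy chains were under 1.5-fold, H2-K1 at -0.36 (-0.43 to -0.29), H2-D1 at -0.51 (-0.57 to -0.45) and H2-T23 at -0.50 (-0.69 to -0.32), and B2m at -0.00 (-0.055 to 0.049). The 2 calls of 9 stood beside 35.4% of all genes called, and neither was made with finer clusters or with cells of at most 5% mitochondrial UMIs. TMM scaling moved the median of all genes from 0.14 to -0.09, and then H2-D1 (-0.72), H2-T23 (-0.71) and Psmb8 (-0.81) were called lower and Psmb9 (0.49) was not called. Within cluster 8, 29.1% of genes were called, and 5 members fell, namely H2-K1 from 2138 to 1132 CPM (-0.92), H2-D1 from 2336 to 1193 CPM (-0.97), H2-T23 from 303 to 158 CPM (-0.94), Tap2 from 142 to 70.5 CPM (-1.01) and Psmb8 from 624 to 278 CPM (-1.16). The Cx3cr1 sub-cluster held 48 CCR2 KO cells at 24 h and 7 at 72 h, and the dividing sub-cluster 1 and 72. The kinds of cell in cluster 8 may thus differ between these times, and their part in the fall was not tested. The comparisons of time and of genotype share libraries, and so are not independent of each other.

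**Figure D4:**
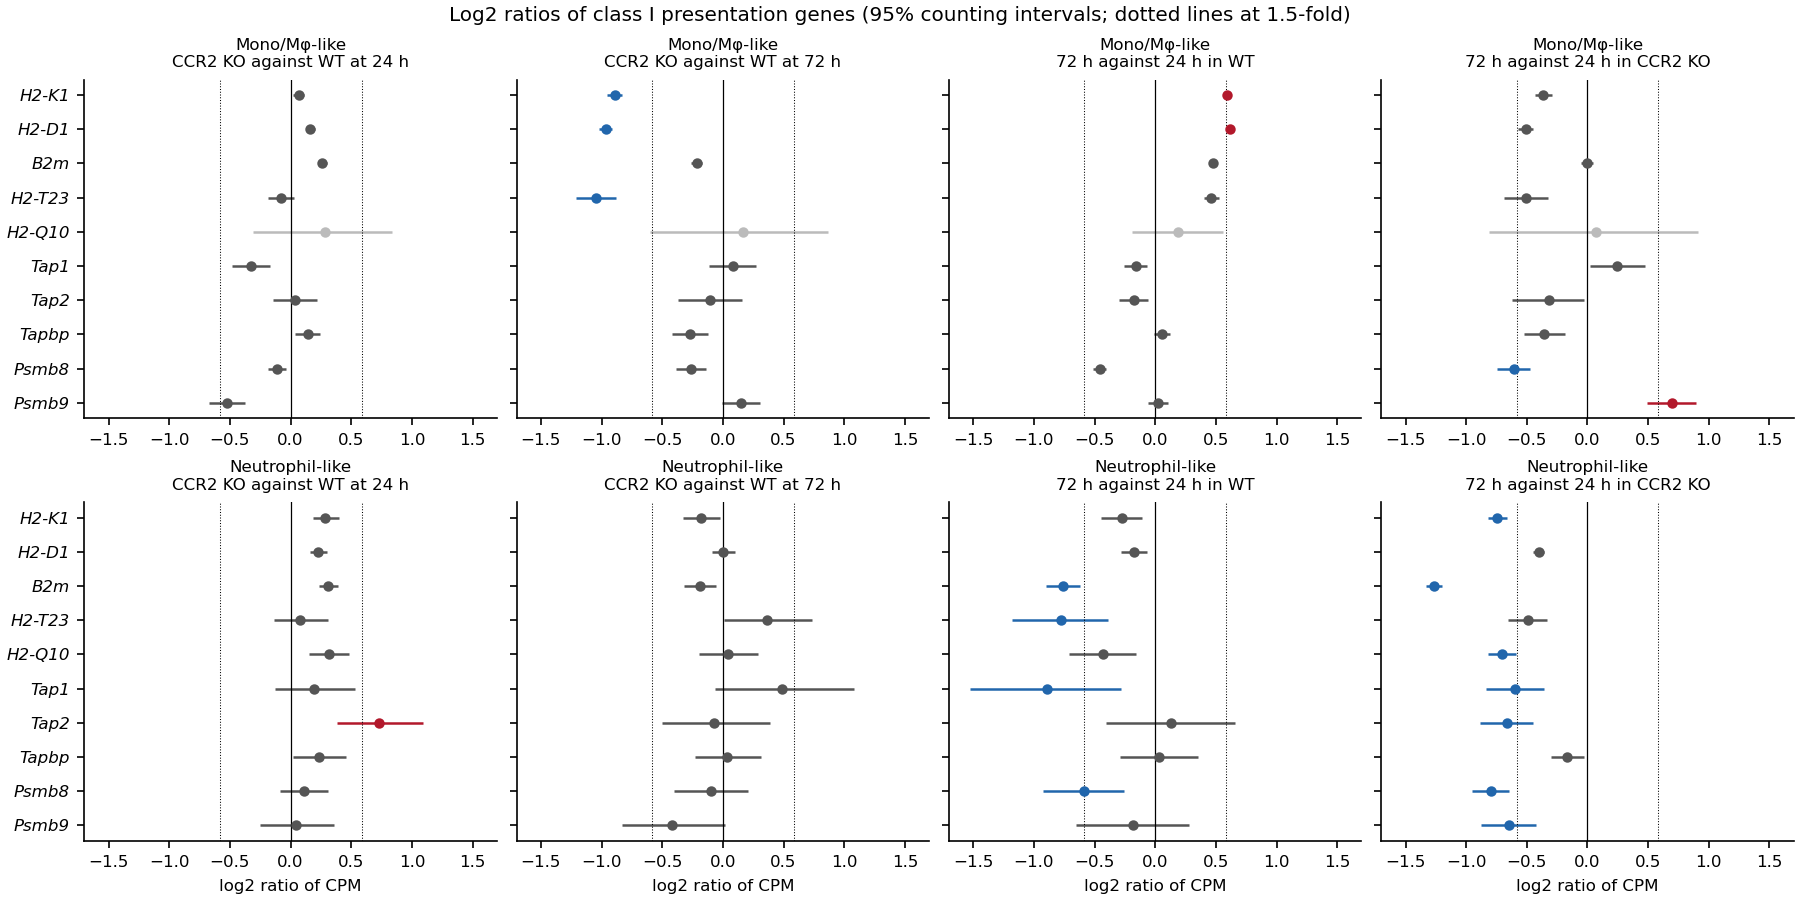
Log2 ratio of each member with its 95% counting interval in monocyte/Mφ-like and neutrophil-like cells for each comparison. Dotted lines mark 1.5-fold, red points are called higher, blue points called lower, dark grey points not past the fold and light grey points too few UMIs. H2-K1, H2-D1 and H2-T23 stand between -0.89 and -1.04 in monocyte/Mφ-like cells at 72 h, and 7 members are called lower from 24 h to 72 h in CCR2 KO neutrophil-like cells.

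Subsets of monocyte/Mφ-like cells differed in which members they held, libraries pooled. Of 13 sub-clusters, the one led by interferon-response genes (369 cells, 309 of them WT 24 h) had the highest Psmb8 level, 696 CPM, with H2-T23 at 374 and H2-K1 at 1824 CPM. The Cx3cr1 cells (113) came next in Psmb8 with 582 CPM and held H2-K1 at 2003 and H2-D1 at 2234 CPM. The Timp2 cells (132, 125 of them WT 72 h) held the highest H2-D1, 3222 CPM, and B2m, 3178 CPM, but Psmb8 at 262 CPM. Cd206 cells (387, 373 of them WT 72 h) held the highest H2-K1, 2338 CPM, with Psmb8 at 311 CPM, and Ly6c monocyte-like cells (337) held H2-K1 at 1214, B2m at 1409 and Psmb8 at 535 CPM. High heavy chain levels were thus found with high Psmb8 in some subsets and with low Psmb8 in others, and several subsets came mainly from 1 library. H2-Q10 was highest, at 59.4 CPM, in 24 cells led by the neutrophil genes S100a9 and Retnlg.

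From 24 h to 72 h, 7 of 10 members fell in neutrophil-like cells of CCR2 KO and 4 of 10 in those of WT. In CCR2 KO, B2m fell from 2501 to 1041 CPM (-1.26, -1.33 to -1.20), Psmb8 from 373 to 215 CPM (-0.80, -0.95 to -0.65), H2-K1 from 1356 to 810 CPM (-0.74, -0.82 to -0.67) and H2-Q10 from 587 to 361 CPM (-0.70, -0.82 to -0.59), with 1249 and 580 cells. Tap1 (-0.60), Tap2 (-0.66) and Psmb9 (-0.65) fell as well, beside 48.4% of 5286 genes called and 8.13% called lower. H2-D1 stood at 3174 and 2404 CPM (-0.40, -0.45 to -0.36), H2-T23 at 285 and 202 CPM and Tapbp at 333 and 297 CPM.

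In WT neutrophil-like cells (305 and 191 cells), 4 of 10 members fell, beside 40.6% of all genes called and 8.57% called lower. B2m went from 2014 to 1189 CPM (-0.76, -0.90 to -0.62), H2-T23 from 269 to 157 CPM (-0.78, -1.18 to -0.39), Tap1 from 120 to 65.0 CPM (-0.89, -1.53 to -0.29) and Psmb8 from 346 to 231 CPM (-0.59, -0.92 to -0.26). H2-K1 stood at 1111 and 918 CPM and H2-D1 at 2708 and 2396 CPM. Within cluster 6 alone H2-T23 went the other way (0.66, 108 and 27 cells). The median of all genes was 0.42 in WT and 0.41 in CCR2 KO, while that of the members was -0.35 and -0.66. TMM scaling, which moved the former to -0.19 and -0.16, called 8 and 10 members lower, and under it Tap2 (-0.48) and Tapbp (-0.58) in WT were below 0 too, having stood at 0.13 and 0.03.

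The neutrophil clusters made up different shares of the libraries, with cluster 5 (Siglecf) at 7, 41, 104 and 369 cells and cluster 2 at 45, 579, 20 and 54 cells. Siglecf is also an eosinophil gene, and the study named a cluster with Siglec-f, Cxcr4 and Pim1 as eosinophils. In cluster 5 Il5ra and Prg2 were at 0 and all 7 neutrophil markers were found. These markers summed to 24417 CPM, libraries pooled, against 62537 in cluster 0, 49656 in cluster 2 and 543 in monocyte/Mφ-like cells. Ccr3 and Epx are not reported here, so the markers given do not settle what cluster 5 is. Within clusters 0, 2 and 6, B2m fell in WT (-0.81, -0.77 and -0.60) and in CCR2 KO (-0.75, -0.89 and -0.65), and H2-K1 fell in WT (-0.85, -0.78 and -0.89) and in CCR2 KO (-0.63, -0.79 and -0.73). H2-D1 did not fall 1.5-fold in any of them and lay from -0.07 to 0.32. In cluster 5, which gave 369 of the 580 CCR2 KO cells at 72 h, B2m fell in CCR2 KO from 1880 to 958 CPM (-0.97, -1.20 to -0.74) and H2-Q10 from 581 to 385 CPM (-0.59), while H2-K1 stood at 1161 and 963 CPM (-0.27, -0.55 to 0.02) and was not called. Tap1 was called higher there on 2 UMIs at 24 h, and 4.06% of all genes were called lower. Of all genes, 12.0% and 6.48% were called lower in cluster 0 in WT and CCR2 KO, and 27.9% and 23.7% were called in either direction in cluster 2 and 27.5% and 21.6% in cluster 6. H2-K1 and H2-D1 thus differed in clusters 0, 2 and 6, most plainly in cluster 6. There H2-K1 stood at 926, 731, 498 and 439 CPM and H2-D1 at 2626, 2937, 3284 and 3293 CPM.

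Relative to their constitutive counterparts, the inducible proteasome subunits fell from 24 h to 72 h in neutrophil-like cells. There were 4.27 and 3.16 Psmb8 UMIs per Psmb5 UMI at 24 h (WT and CCR2 KO) and 0.991 and 1.07 at 72 h. Psmb9 to Psmb6 went from 3.11 and 3.29 to 1.15 and 0.897. In monocyte/Mφ-like cells these ratios were 1.49, 1.46, 2.41 and 1.64 for Psmb8 and 0.497, 0.313, 0.997 and 0.841 for Psmb9. They were thus higher at 72 h than at 24 h in both genotypes, but only slightly for Psmb8 in CCR2 KO, on 1631 and 619 Psmb8 UMIs.

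Between the genotypes, neutrophil-like cells were closer. At 24 h all 10 members were above 0 on the log2 scale, and Tap2 alone was called, at 102 CPM in WT and 168 CPM in CCR2 KO (0.73, 0.38 to 1.09), beside 17.9% of all genes. With TMM scaling, which moved the median of all genes from 0.11 to -0.03, H2-T23 (-0.05), Psmb8 (-0.02) and Psmb9 (-0.08) were below 0. At 72 h none of 10 was called, beside 8.87% of all genes. H2-D1 stood at 2396 and 2404 CPM (0.00) and H2-Q10 at 350 and 361 CPM (0.04).

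Within clusters the H2-Q10 level differed in both directions between the genotypes. In cluster 6 it was higher in CCR2 KO at 24 h (259 and 534 CPM, 1.04, 0.71 to 1.39) and lower at 72 h (551 and 334 CPM, -0.72, -1.17 to -0.25). At 72 h it was lower in CCR2 KO in cluster 2 (553 and 190 CPM, -1.54, -2.22 to -0.84) and higher in cluster 5 (128 and 385 CPM, 1.59, 1.05 to 2.18). In the same comparisons 26.1% and 13.1% of all genes were called in cluster 6, 13.3% in cluster 2 and 8.28% in cluster 5. The WT 72 h values rest on 20 to 104 cells of few UMIs each.

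In DC-like cells 0 members were called in each comparison, beside 15.4% of all genes between the genotypes at 24 h, 12.0% at 72 h, and 17.8% and 18.9% from 24 h to 72 h in WT and CCR2 KO. The furthest was Psmb9 at 386 CPM in WT 72 h and 553 CPM in CCR2 KO 72 h (0.52, 0.41 to 0.63). Tap1 stood at 213 and 289 CPM in the same libraries (0.44, 0.30 to 0.59). CCR2 KO 24 h held Psmb9 at 396 and Tap1 at 208 CPM, so CCR2 KO 72 h stood above that library too. The Xcr1 sub-cluster described below gave 26 of the 126 cells in CCR2 KO 72 h and 15 of the 144 in WT 72 h. Its part in these levels was not tested. In T cell-like cells none was called between the genotypes at 72 h (9.40% of all genes) or from 24 h to 72 h in CCR2 KO (11.3%). In NK cell-like cells none was called from 24 h to 72 h in CCR2 KO (8.03%).

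The DC sub-clusters, libraries pooled, differed in which members they held. The sub-cluster led by Xcr1 genes (48 cells), a marker of DCs that present antigen to CD8 T cells, held Psmb8 at 1637, Psmb9 at 936, Tap1 at 427 and Tap2 at 330 CPM, but H2-K1 at 878 and H2-D1 at 1328 CPM. Its dividing counterpart (20 cells) was alike, with Psmb8 at 1531, Psmb9 at 857 and H2-K1 at 780 CPM. The Ccr7 sub-cluster (46 cells), which marks DCs on their way to lymph nodes, held the highest H2-K1 (2260 CPM), H2-D1 (2652 CPM) and B2m (1762 CPM), with Psmb8 at 1134, Psmb9 at 400, Tap1 at 241 and Tap2 at 166 CPM, each below the Xcr1 sub-clusters and above the 6 others. H2-T23 did not follow H2-K1 and H2-D1, at 411 CPM in the Xcr1 cells and 369 CPM in the Ccr7 cells. In the 6 other sub-clusters H2-K1 lay from 901 to 1740 CPM and Psmb9 from 194 to 372 CPM. The Xcr1 cells came mainly from the 72 h libraries (5, 2, 15 and 26 cells), and WT 24 h gave 2 of the Ccr7 cells, so these levels were not compared between libraries.

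**Figure D5:**
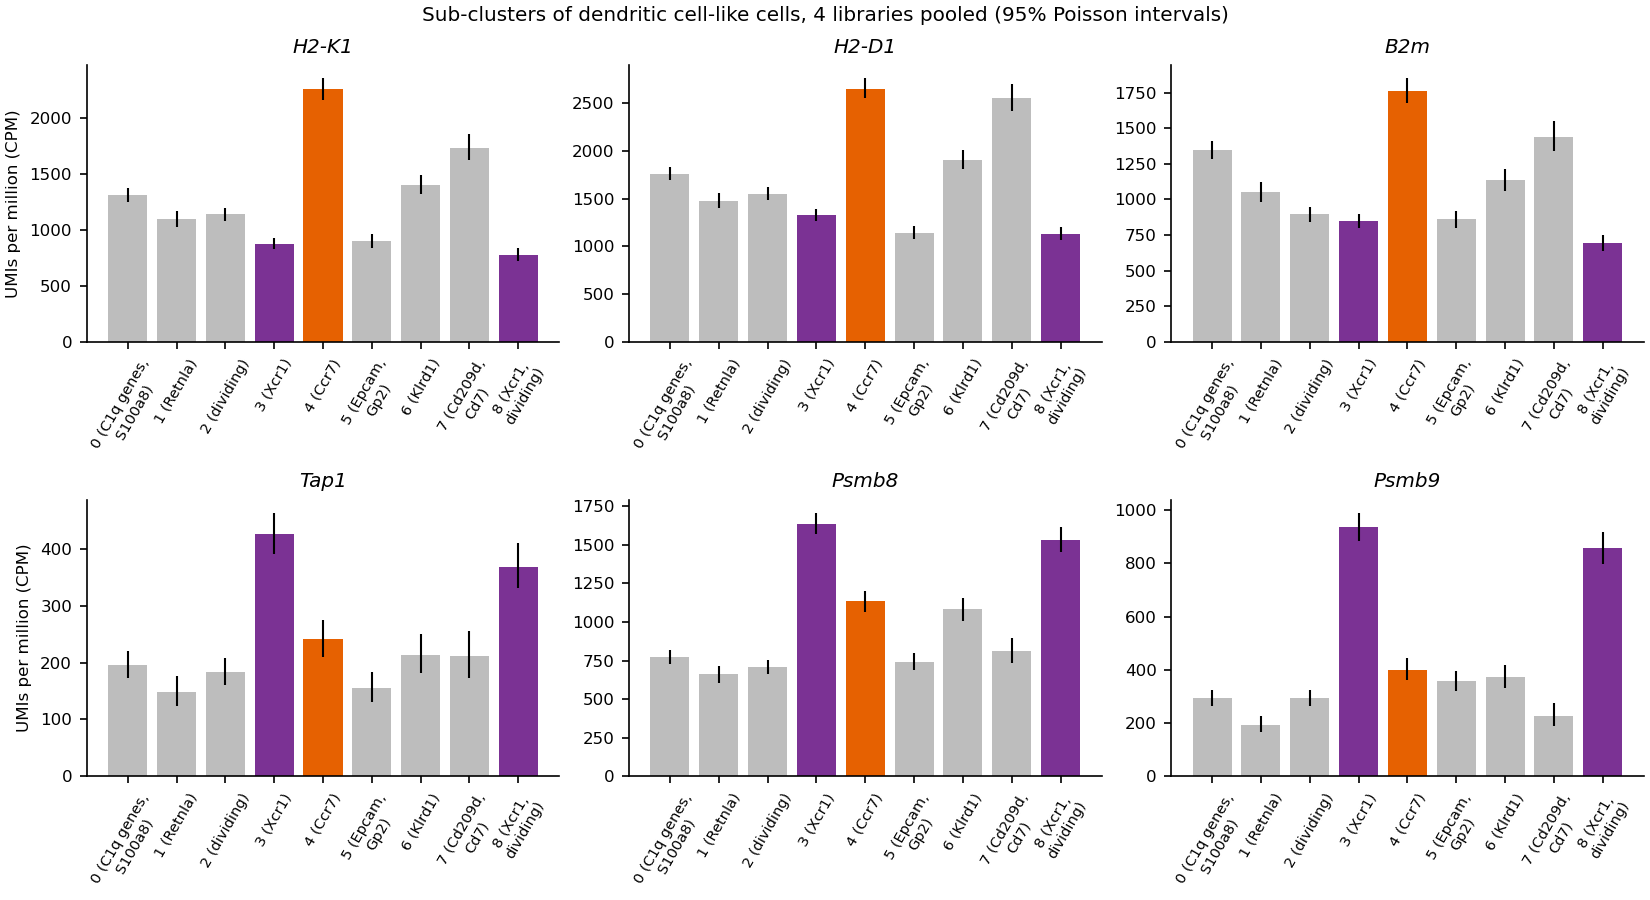
Levels (CPM, bars from 0) of 6 members in 9 sub-clusters of DC-like cells, 4 libraries pooled; orange is the Ccr7 sub-cluster, purple the Xcr1 sub-clusters and grey the others. The Ccr7 cells are highest in H2-K1, H2-D1 and B2m, and the Xcr1 cells in Tap1, Psmb8 and Psmb9.

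Other genes of the pathway were counted in lists, chosen with earlier results of these data known, of which 67 of 71 genes were in the tables. The counts in monocyte/Mφ-like cells at 72 h stand beside 25.4% of all genes called, with 8.37% of all genes called lower. In these cells, 3 of 7 further class I or class I-like chains were lower in CCR2 KO and none higher (list median -0.58, all genes 0.13), namely H2-Q7 at 120 and 33.3 CPM (-1.85), Fcgrt, the neonatal Fc receptor (-0.79), and Hfe, a regulator of iron uptake (-0.75). Of 8 genes of peptide supply and loading, Canx, the chaperone calnexin, was higher (0.78) and none lower (median 0.30). Of 3 constitutive proteasome subunits Psmb7 was higher (0.78). Of 9 regulators only Ifngr1, an interferon-γ receptor chain, was called (-0.80), and among the others Nlrc5 stood at 0.23 and Irf1 at -0.19.

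At 72 h, 7 of 10 type I interferon response genes were lower in CCR2 KO (median -0.71), beside 8.37% of all genes. They were led by Cxcl10 at 59.8 and 8.08 CPM (-2.89), Irf7 (-1.14), Rsad2 (-0.91) and Usp18 (-0.82). Of 8 interferon-γ response genes Iigp1 was higher (1.12) and Ciita, the regulator of MHC class II, lower (-1.35), with a median of 0.25. Pirb, a receptor of class I, was lower (-0.66). At 24 h, when 5.85% of all genes were called lower and 5.92% higher, 5 of the 10 type I genes were lower in CCR2 KO (median -0.58, all genes -0.07) with Ifit2 (-0.93), Irf7 (-0.81), Ifit3 (-0.70) and Mx1 (-0.61), and of 10 interferon-γ genes Cxcl9 (3.10) and Cd274 (1.04) were higher and Irgm2 (-0.83) lower. H2-Q6 (1.63), H2-Q7 (0.67) and H2-Q4 (0.59) were higher and Hfe (-0.93) lower, of 7. Rfxap (-0.74) and Ifngr1 (-0.65) were the 2 of 9 regulators called, Pirb stood at -0.97, and none was called of the 8 supply genes or of the 3 constitutive subunits. H2-Q4, H2-Q6 and H2-Q7 are related genes whose reads may be split, and windows shared among them were not counted.

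Over time many genes were called in monocyte/Mφ-like cells, 16.1% higher and 17.9% lower in WT and 23.2% higher and 12.2% lower in CCR2 KO. In WT, 5 of 7 further class I chains rose (median 0.90, all genes -0.05), with Fcgrt (3.11), Hfe (2.19), Cd1d1 (1.27) and H2-Q4 (0.90). Of the supply genes 4 of 8 fell, Calr (-1.25), Psme2 (-1.06), Pdia3 (-0.91) and Psmb10 (-0.59), and all 3 constitutive subunits fell, with Psmb5 at -1.15. Of 9 regulators Ifngr1 rose (1.05). Of 9 interferon-γ genes 4 fell and Ciita rose (2.29), and of 10 type I genes 7 fell (median -0.92), with Isg15 at -1.88. In CCR2 KO over time 2 of 7 further chains rose, Hfe (2.37) and Fcgrt (2.005), and 2 fell, H2-Q6 (-2.34) and H2-Q7 (-1.72). There 2 of 8 supply genes and 2 of 3 constitutive subunits fell, Ifngr1 (0.90) and Irf1 (0.72) rose of 9 regulators, 4 of 10 interferon-γ genes rose and 2 fell, and 7 of 10 type I genes fell (median -0.98, all genes 0.14).

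In neutrophil-like cells most genes of the interferon lists fell over time, beside 8.13% of all genes called lower in CCR2 KO and 8.57% in WT. All 9 interferon-γ genes tested (median -1.59) and all 9 type I genes (median -1.89) fell in CCR2 KO, and 6 of 7 (median -1.69) and 8 of 9 (median -2.48) in WT. Nlrc5, the class I transactivator, fell from 41.8 to 7.15 CPM (-2.55) in CCR2 KO, and Irf1 (-0.66) and Ifnar1 (-0.67) were also among the 4 called of 9 regulators. The constitutive subunits went the other way, with 3 of 3 higher in CCR2 KO (median 0.76) and 2 of 3 in WT (median 1.26). Of all genes, 40.3% were called higher in CCR2 KO, and 40.6% were called in either direction in WT. Between the genotypes 5 of 9 interferon-γ genes at 24 h and 4 of 7 at 72 h were higher in CCR2 KO, and 1 and 0 of 10 members were, beside 12.3% and 4.80% of all genes.

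Like patterns were sought over 23 sums of at least 20 cells in a library, from the named classes and the unnamed clusters 13 and 15. The genes most like the mean of the members in log2(CPM + 10) were Ppp1r12a (Pearson r = 0.88), Socs1 (0.86), Traf1 (0.85), Dennd1c (0.82), Def6 and Tnfrsf18 (0.81), Gpr132 and Ptpn22 (0.80), and Rinl and Tnfrsf9 (0.79). H2-Q10 was most like 2310001H17Rik, Btg1 and Rlf (0.94), and Psmb8 most like Psme1, a subunit of the proteasome activator (0.91). Between members, Psmb8 and Psmb9 stood at 0.85, Tap1 and Psmb9 at 0.79, H2-K1 and H2-D1 at 0.69, and H2-Q10 and Psmb8 at -0.59. The sums share libraries and depth, so these values are a description.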

How the data were processed

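The 4 libraries were made with the 10x Genomics 3′ kit. Per the labels and the study's methods, the authors aligned and counted reads with Cell Ranger 3.0.2 on the mouse genome GRCm38 (mm10) and filtered cells in Seurat, where cells with under 200 genes or over 10% mitochondrial reads were dropped. The deposited values are raw UMI counts per gene and cell, with no normalization, and removal of doublets is not given in the sources used here.

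Cells with non-immune transcripts (at least 3 UMIs and 0.1% of the cell) and little Lyz2 were removed. Counts were scaled to 10000 per cell, and 2000 variable genes without the members, 30 principal components and 20 neighbours gave Leiden clusters at resolution 1 (scanpy 1.11.5, leidenalg 0.10.2), named by mean marker score with at least 3 markers at 20 CPM. Scrublet marked 9 of 5802 cells (0.155%), too few to have worked, so removal of the 76 highest scores was also tried. UMIs were pooled per class and library of at least 20 cells and divided by their total (CPM). Exact Poisson, conditional binomial and Clopper-Pearson 95% intervals were computed with scipy 1.17.1. Genes with at least 20 CPM in 1 library and 30 UMIs over both were tested for the 1.5-fold call, and no p-value was computed as each group had 1 library. The step was tested on simulated data.

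All 10 members are named in every class of 20 cells, together with up to 4 genes of each list with the largest log2 ratio per comparison in monocyte/Mφ-like cells and the 10 genes of most like pattern. List genes in neutrophil-like cells, clusters and sub-clusters were picked after their values were seen. The members, lists and markers were chosen with earlier results of these data known. Alternatives were a per-cell marker gate, Leiden resolution 2, clustering of each library, TMM factors (edgeR 4.0.16), the mean of cell CPM, stricter cell filters, thinning to 1000 UMIs, no minimum count and a 2-fold call. Added after seeing the data were removal of top Scrublet scores, of cluster 5 and of dividing cells, and fits to clusters 0, 6 or 8 only. The members' promoters and positions came from RefSeq and GENCODE tables on GRCm38, where 9 of 10 members had a promoter. Values of some genes of the marker and regulator lists are not reported here.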

Additional observations from a re-analysis of the deposited data

Results flagged for a closer look

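In the Ly6g-expressing neutrophil cluster 6, the H2-Q10 log2 ratio of CCR2 KO to WT was 1.04 at 24 h and -0.72 at 72 h, so that the genotypes differed in opposite directions at the 2 times. From 24 h to 72 h the H2-Q10 ratio in this cluster was 1.09 in WT and -0.68 in CCR2 KO. WT 72 h gave 27 cells of this cluster, and the other libraries 108, 112 and 89.

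In the monocyte/Mφ-like cluster 8, H2-T23 went from 24 h to 72 h by a log2 ratio of 0.68 in WT and of -0.94 in CCR2 KO, with 23 and 63 WT cells and 53 and 84 CCR2 KO cells. The kinds of cell in cluster 8 may differ between these libraries.

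In CCR2 KO, Psmb9 from 24 h to 72 h stood at 0.70 in monocyte/Mφ-like cells and at -0.65 in neutrophil-like cells. In each of these cases both counting intervals left out 0, and with 1 library a group the difference itself was not tested.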

How the results depend on the processing

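No paired analysis was possible because each group had 1 library and the labels give no replicate numbers. Of 240 values of the 19 called ratios under the alternatives, 196 were still called in the same direction and 1 changed sign, H2-T23 in WT neutrophil-like cells over time, at 0.66 within cluster 6 (27 and 108 cells). In monocyte/Mφ-like cells at 72 h, H2-K1 stayed called between the genotypes in 12 of 12 alternatives (-0.99 to -0.66), and H2-D1 (-1.04 to -0.46) and H2-T23 (-1.35 to -0.51) in 11 each. H2-K1 and H2-D1 over time in WT held in 6 of 12, and Psmb9 in CCR2 KO in 5 of 12. In neutrophil-like cells over time in CCR2 KO, B2m, H2-K1 and H2-Q10 held in 13 of 13.

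The number of members called in monocyte/Mφ-like cells between the genotypes at 24 h, 0, was 1 with finer clusters, with the mean of cell CPM and with thinning (Psmb9 each time), and the 3 at 72 h became 1 at 2-fold. Over time in WT, the 2 became 0 with the marker gate, finer clusters, TMM factors, the mean of cell CPM and 2-fold, 1 with thinning and in cluster 8, and 4 with each library clustered alone. In CCR2 KO the 2 became 1 with the marker gate, 0 with finer clusters, at most 5% mitochondrial UMIs, 2-fold or no dividing cells, and 5 in cluster 8. In neutrophil-like cells the 1 at 24 h became 0 at 2-fold and 3 in cluster 6, and the 0 at 72 h became 3 with finer clusters or without cluster 5, 2 with libraries clustered alone and 1 with the mean of cell CPM or in cluster 6. Over time, the 4 in WT became 8 with TMM factors and 0 at 2-fold, and the 7 in CCR2 KO became 4 with the marker gate and 1 at 2-fold. The 2-fold counts follow from the higher threshold, and otherwise the cause was not tested. The share of all genes called moved with the setting too, so these counts do not describe the members alone. In monocyte/Mφ-like cells finer clusters gave 15% between the genotypes at 24 h, against 11.8% in the main setting. Over time they gave 30.9% against 34.0% in WT and 21% against 35.4% in CCR2 KO. The marker gate gave 32.8% and 32.3% there, and 50.1% against 48.4% in CCR2 KO neutrophil-like cells over time. Shares under the other settings are not given here. Few UMIs limit H2-Q10 in T cell-like, NK cell-like and B cell-like cells, and all members in ILC-like cells. In monocyte/Mφ-like and DC-like cells the pooled H2-Q10 level, 8.07 and 7.14 CPM, was under the 20 CPM needed for a call.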
